A study of Mus musculus with 8 samples.

Results

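Mir191 and Mir425 are neighbouring microRNA (miRNA) genes on mouse chromosome 9, called the cluster here. Its members were taken as every entry of the deposited count table named miR-191 or miR-425 with any strand suffix, which gave 3 of 190 mature miRNAs: mmu-miR-191-5p, mmu-miR-425-5p and mmu-miR-425-3p. All 3 had counts in all 8 libraries, and 2 of them passed the filter on low counts. The other strand of the first hairpin, miR-191-3p, was not analysed here. Small RNA was sequenced from sorted bone marrow LSK cells, the lineage-negative fraction carrying Sca1 and cKit in which blood stem cells and multipotent progenitors reside. The 4 db/m libraries came from strain B6.BKS(D)-Leprdb/+ db/m, labelled heterozygous for the leptin receptor mutation, and the 4 db/db libraries from B6.BKS(D)-Leprdb/J, labelled homozygous, a model of obesity with type 2 diabetes. The db/m controls therefore also carried 1 mutant allele, and all 8 were labelled 6 months after diabetes, without an age, a sex or a statement that each library came from its own animal. Every sample title reads db/m, so groups follow the genotype labels. Some libraries of a genotype share a number in their titles, whose meaning is not given.

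A miRNA hairpin is cut out of a longer primary transcript by Drosha and then by Dicer, which leaves a short duplex of a 5p and a 3p strand. Usually 1 strand is kept by Argonaute and the other is degraded, so miRNAs from 1 transcript share their transcription but can differ in processing, loading and decay. miR-191-5p is expressed in many tissues and is widely used as a reference miRNA in quantitative PCR. In mouse erythroblasts it is known to fall during terminal maturation, and keeping it high blocks enucleation through its targets Riok3 and Mxi1.

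In GRCm38 (mm10) coordinates the Mir191 hairpin spans chr9:108568319-108568392 and the Mir425 hairpin chr9:108568777-108568861, both on the plus strand and 384 bases apart. In GENCODE M21 both lie within the single exon of transcript 4833445I07Rik-201 of a long non-coding RNA gene (chr9:108567533-108569174, plus strand). The second transcript of that gene holds Mir191 in its intron and ends before Mir425. The protein-coding gene Dalrd3, known as the host of the human pair, starts 1025 bases downstream of Mir425 in this annotation. A predicted miRNA gene, Gm24083, is annotated on the minus strand across Mir191. The hairpin sequences from RefSeq (GRCm38.p6) show where the counted strands sit, with mature strands in capitals.

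Mir191 hairpin: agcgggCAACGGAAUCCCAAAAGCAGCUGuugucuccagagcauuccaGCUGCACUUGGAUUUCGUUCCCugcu

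Mir425 hairpin: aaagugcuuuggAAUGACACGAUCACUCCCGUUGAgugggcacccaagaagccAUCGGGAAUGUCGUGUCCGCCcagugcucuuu

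The 3 members follow, each with its seed (bases 2 to 8, the stretch that selects targets) in capitals. All 3 matched a RefSeq entry by name.

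mmu-miR-191-5p: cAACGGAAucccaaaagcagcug

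mmu-miR-425-5p: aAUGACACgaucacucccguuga

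mmu-miR-425-3p: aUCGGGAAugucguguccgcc

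The seeds differ between the 3 members, so neighbours of 1 transcript and strands of 1 hairpin would be read as different target sets. Among 1738 mature mouse entries in RefSeq only the miR-425-5p seed recurred, in miR-489-3p, which was not analysed here. No stretch longer than 8 bases was shared between a member and another table miRNA found in RefSeq (163 of 190). Strands with a loosely paired 5′ end are known to be loaded preferentially, and A and U pair more weakly than G and C. The first 4 bases held 3 A or U in miR-425-5p and 2 in miR-425-3p. Pairing at these ends was not examined, and any part of it in the strand balance was not tested.

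The table held 371637 counts, between 13273 (db/m replicate 2) and 77834 (db/m replicate 3) per library. Counts are compared as CPM, the usual scaling of counts to a common library size, here with TMM factors, and 3 counts corresponded to 38.5 to 226 CPM depending on depth. Markers of stem and progenitor cells, such as miR-125a-5p and miR-126a-3p, made up 7.48% to 10.8% of counts in db/m and 11.8% to 15.5% in db/db. Of 11 tested, 3 rose in db/db by edgeR at adjusted p of 0.05: miR-126a-3p by 1.38 on the log2 scale (adjusted p = 0.00532), miR-126a-5p by 1.60 (adjusted p = 0.00532) and miR-196b-5p by 0.75 (adjusted p = 0.0436), while the most abundant, miR-125a-5p, stood at 0.03. Over all tested miRNAs 4.86% passed. The list had 10 log2 fold changes above 0 and 1 below, that of miR-22-3p, at -1.42 with groups that did not overlap (SE 0.49, adjusted p = 0.111 by edgeR). Of 3 myeloid markers 0 passed, with miR-142a-3p at 0.21, miR-223-3p at -0.06, miR-142a-5p at -0.25 and a share of 1.96% to 2.89% in db/m against 2.23% to 2.91% in db/db. Of 3 lymphoid markers 0 passed, with miR-181a-5p at -0.08, miR-181b-5p at -0.30, miR-150-5p at -0.63 and a share of 1.65% to 1.96% against 1.13% to 2.38%. Of hepatocyte and muscle markers only miR-122-5p was tested, at -0.16, and the list took at most 0.188% of any library. The erythroid markers miR-451a and miR-144 were not analysed here. Of stromal and endothelial markers 2 of 8 were tested, and 1, the same miR-126a-3p, rose. The share of this list was 0.690% to 1.02% in db/m and 1.48% to 3.42% in db/db. It was mostly miR-126a-3p, with 6349 counts beside 114 of miR-199a-3p and 52 of miR-143-3p. The stem and progenitor share and this one moved with genotype, and both hold miR-126a-3p, so they are not separate. The part of these shares in the results that follow was not tested. The proteins that define LSK cells are not measured by small RNA.

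miR-191-5p was one of the most abundant miRNAs of these cells, and its mean level was lower in db/db without passing the test. It supplied 11933 of the members' counts, 92.8% of the cluster, and ranked 7 of 190 over all libraries. Its rank within a library was 8, 7, 7 and 7 for the db/m libraries and 11, 13, 7 and 8 for the db/db ones, in replicate order. Raw counts were 1285, 444, 2939 and 1787 in db/m and 1543, 1229, 1090 and 1616 in db/db. On the CPM scale these became 34047, 33926, 39518 and 34232 for db/m and 26887, 23883, 29447 and 35679 for db/db. The db/db libraries 1, 2 and 3 lay below all db/m libraries, while db/db replicate 4 lay above 3 of them, so the groups overlapped. Libraries of db/m averaged 35431 ± 2728 CPM and those of db/db 28974 ± 5015 (SD, n = 4 per genotype), a log2 fold change of -0.29 (SE 0.15, 95% interval -0.62 to 0.03, adjusted p = 0.291 by edgeR's quasi-likelihood test over 144 miRNAs).

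miR-425-5p was about an order of magnitude rarer and showed a similar direction with a wider error. Its 858 counts ranked 51 of 190. Raw counts were 80, 51, 218 and 123 in db/m and 132, 79, 97 and 78 in db/db. In CPM the db/m libraries stood at 2120, 3897, 2931 and 2356 and the db/db libraries at 2300, 1535, 2621 and 1722. The highest library was db/m replicate 2, the shallowest, and the lowest were db/db replicates 2 and 4, with the other libraries interleaved. Libraries of db/m averaged 2826 ± 791 CPM and those of db/db 2044 ± 503 (SD, n = 4 per genotype), a log2 fold change of -0.44 (SE 0.26, 95% interval -1.003 to 0.116, adjusted p = 0.333 by edgeR's quasi-likelihood test).

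Of the 2 tested members 0 passed adjusted p of 0.05 by edgeR and 0 had an unadjusted p under 0.05 (0.0747 for miR-191-5p and 0.111 for miR-425-5p). Over all 144 tested miRNAs 4.86% passed at the adjusted threshold, 22.2% had an unadjusted p under 0.05, and in 17.4% the groups did not overlap, which held for 0 of the 2 members. DESeq2 also called 0 members. The median log2 fold change of all tested miRNAs was -0.03. The authors' deposited table, which lists diabetic against control libraries, gave log2 fold changes of -0.37 for miR-191-5p (p = 0.0453, false discovery rate 0.258), -0.53 for miR-425-5p (p = 0.0503, false discovery rate 0.265) and 0.01 for miR-425-3p (false discovery rate 0.993) by edgeR. The unadjusted p for miR-191-5p crossed 0.05 with a single library left out: without db/db replicate 4 it was 0.0292, at a log2 fold change of -0.37 and an adjusted p of 0.174 by edgeR. It also fell below with no filter on low counts (0.0294 by edgeR). A likelihood ratio test by edgeR on all 190 miRNAs, with the genotype labels as groups, gave the members the values of the authors' deposited table.

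miR-425-3p was close to the limit of detection. It had 64 counts in all, 2, 1, 22 and 7 in db/m and 9, 12, 8 and 3 in db/db, and the filter on low counts removed it from the test. Of the 32 db/m counts 22 came from the deepest library, db/m replicate 3. With all miRNAs kept, its level was 53.1, 78.7, 287 and 146 CPM for db/m and 146, 236, 201 and 65.0 CPM for db/db, so the groups covered much the same range. Libraries of db/m averaged 141 ± 105 CPM and those of db/db 162 ± 74.5 (SD, n = 4 per genotype). Its log2 fold change in that unfiltered edgeR fit was 0.001 (adjusted p = 1.00) and 0.15 by DESeq2, and the sign turned with the library left out, from -0.27 to 0.69.

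**Figure D1:**
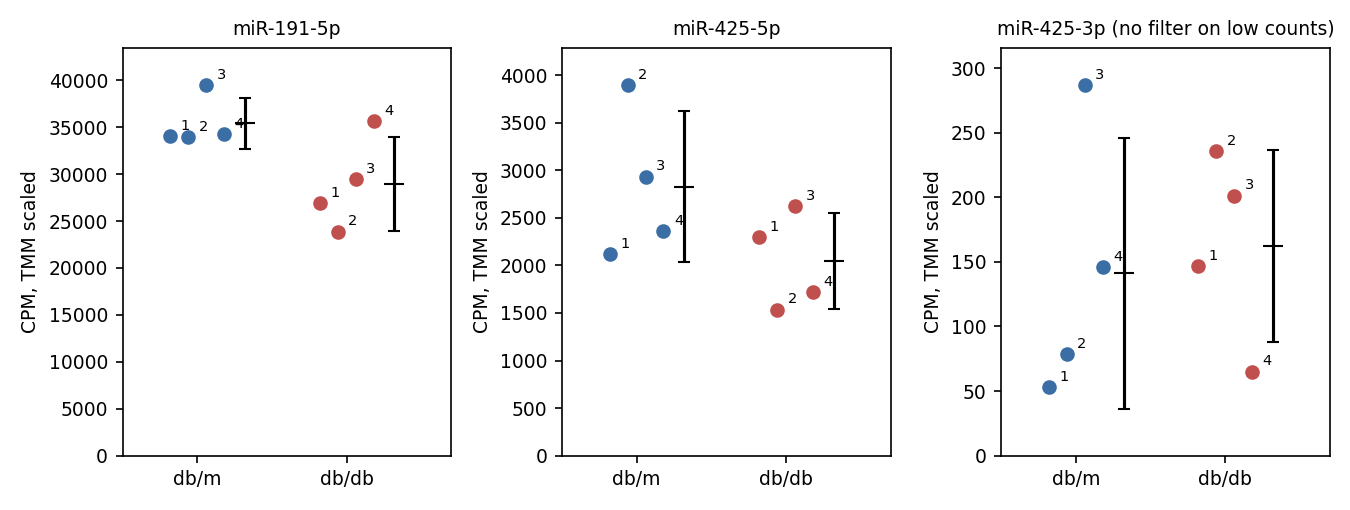
Level of each member in CPM (vertical axis) by genotype, 1 point per library labelled with its replicate number, with mean and SD beside the points. miR-191-5p is lower in db/db replicates 1 to 3 than in any db/m library, db/db replicate 4 is not, and the genotypes overlap for both miR-425 strands.

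The share of all counts taken by the cluster was 3.37%, 3.74%, 4.08% and 3.51% in db/m and 3.11%, 2.63%, 3.31% and 3.78% in db/db. As for miR-191-5p, which makes up most of it, the highest db/db value was replicate 4 and the groups overlapped. The means were 3.68% ± 0.311 and 3.21% ± 0.477 (SD, n = 4 per genotype; exact two-sided permutation p = 0.171, adjusted p = 0.457 over the 4 cluster measures compared). The difference of -0.47 percentage points became -0.28 without db/db replicate 2. With let-7 miRNAs out of the total it was -1.16 (exact permutation p = 0.0571). Every share is larger on that smaller total, so -1.16 cannot be set against -0.47 as a larger change. The smallest p that the 70 assignments of 8 libraries allow is 0.0286.

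Within the cluster, miR-191-5p outnumbered miR-425-5p in every library, and the ratio of the pair did not separate the genotypes. There were 16.1, 8.71, 13.5 and 14.5 miR-191-5p counts per miR-425-5p count for the db/m libraries and 11.7, 15.6, 11.2 and 20.7 for the db/db ones. The lowest ratio was in db/m replicate 2 and the highest in db/db replicate 4, with the other 6 libraries between 11.2 and 16.1. The ratio averaged 13.2 ± 3.17 for db/m and 14.8 ± 4.40 for db/db (SD, n = 4 per genotype), and summed over all libraries the ratio was 13.9. The log2 ratio of miR-425-5p to miR-191-5p differed by -0.16 (SE 0.28) between db/db and db/m (exact two-sided permutation p = 0.6, adjusted p = 0.6). The sign turned when db/m replicate 2 was left out (0.0307), and likewise for db/db replicate 4 (0.0197). The ratio varied by an SD of 0.40 log2 units within groups, and counting alone gives 0.16. In db/db replicate 4 miR-425-5p was 4.60% of the pair (95% exact Clopper-Pearson interval 3.66% to 5.71%), and in db/db replicate 3 it was 8.17% (6.68% to 9.88%).

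The strand balance of the Mir425 hairpin favoured the 5p strand in all 8 libraries. The 3p strand made up 2.44%, 1.92%, 9.17% and 5.38% of miR-425 counts in db/m and 6.38%, 13.2%, 7.62% and 3.70% in db/db. The lowest 2 values were both db/m and the highest was db/db, but the groups overlapped. Those lowest 2 values rest on 2 counts of the 3p strand in db/m replicate 1 and 1 count in db/m replicate 2. Their 95% exact Clopper-Pearson intervals were 0.297% to 8.53% and 0.0487% to 10.3%. The share averaged 4.73% ± 3.33 for db/m and 7.72% ± 3.99 for db/db (SD, n = 4 per genotype). The log2 ratio of 3p to 5p differed by 0.89 (SE 0.68) between db/db and db/m (exact two-sided permutation p = 0.229, adjusted p = 0.457). With counts summed per genotype, 32 counts were of the 3p strand in each, which is 6.35% of miR-425 in db/m (95% exact Clopper-Pearson interval 4.38% to 8.85%) and 7.66% in db/db (5.30% to 10.6%). The log2 difference of the summed counts was 0.29, against 0.89 for the mean over libraries, in which each library weighs the same. Without db/m replicate 3, which holds 22 of the 32 db/m counts, the mean difference was 1.32. It was 0.53 without db/m replicate 2, which holds 1 count of the 3p strand, and 0.55 without db/db replicate 2. The exact intervals cover counting error only. Counting alone gives the strand ratio an SD of 0.80 log2 units, beside 0.96 observed within groups. The ratio of miR-425-3p to miR-191-5p differed by 0.73 (SE 0.72; exact two-sided permutation p = 0.343, adjusted p = 0.457). It was 0.24 from summed counts, and with 1 library left out it ran from 0.38 without db/m replicate 1 to 1.23 without db/db replicate 4, with 0.43 without db/db replicate 2 and 1.14 without db/m replicate 3.

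**Figure D2:**
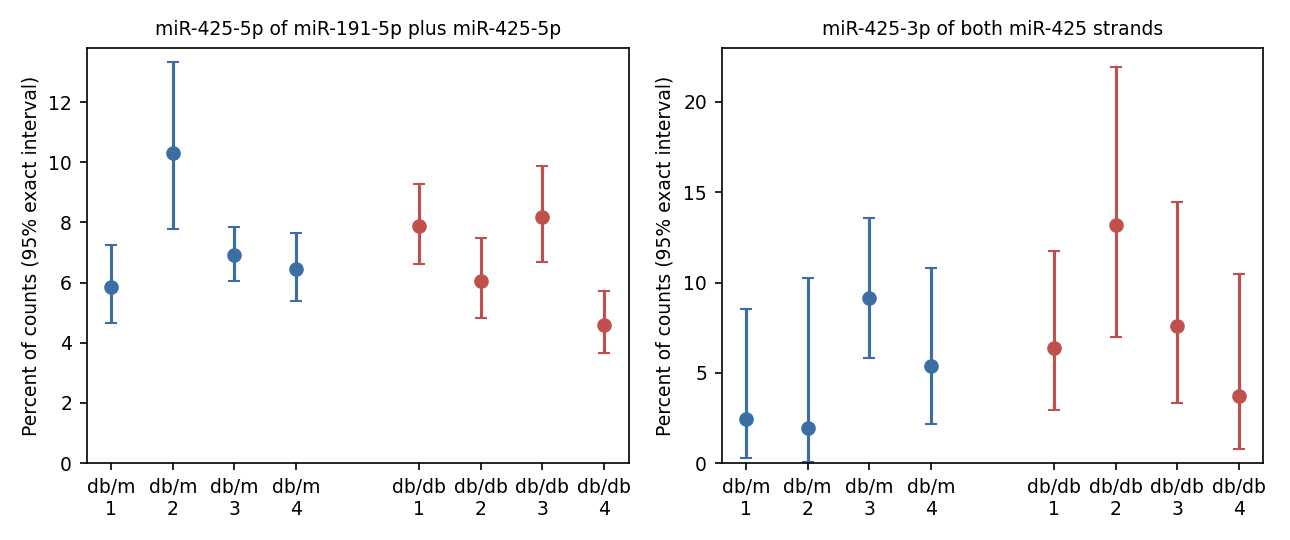
Percent of counts (vertical axis) per library, left for miR-425-5p among miR-191-5p plus miR-425-5p and right for miR-425-3p among both miR-425 strands, with 95% exact binomial intervals. The left values run from 4.60% to 10.3% and the right ones from 1.92% to 13.2%, and db/m and db/db overlap in both.

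Against other hairpins, the Mir425 strand ratio lay within the range of the others. Among table miRNAs found by name in RefSeq (163 of 190), both strands of 26 hairpins were present. Some hairpins with both strands in the table, such as that of miR-126a, are therefore not among the 26. The minor strand of Mir425, 6.94% of its counts, was the eighth smallest of the 26 by share. Ahead of it were Mir92-1, Mir181a-1 and Mir181a-2, where 1 strand is shared with another hairpin, so their share is not that of 1 hairpin. Mir425, with 64 counts of its 3p strand, is not among the 14 hairpins averaging at least 10 counts on both strands. With 0.5 counts added to each strand, the Mir425 difference between genotypes was 0.74 log2 units, the ninth in size of 26, where the median size was 0.49 and the range 0.01 to 1.30. The groups did not overlap in 3.85% of these hairpins, 1 of 26, and that was Mir423. Ratios of neighbouring hairpins gave the same kind of comparison for the pair. Here 25 pairs lay within 10 kb on 1 strand, taking from each hairpin its more abundant strand of unique origin. Only miRNAs found by name in RefSeq could enter, and 8 of their 123 hairpins with a miRNA of unique origin had no hairpin entry. The 25 pairs are thus not all neighbours of the table. Several pairs share a miRNA of the miR-17 and miR-322 clusters and are not independent. The miR-425-5p to miR-191-5p ratio moved by -0.16, the 18th in size of 25 with a median size of 0.23. In 0% of the 25 pairs, this one included, did the genotypes separate without overlap. The imbalance within the pair, 13.9-fold, was the fifth largest of these 25 under this strand rule. By that rule Mir92-1 entered with miR-92a-1-5p (150 counts) and not with miR-92a-3p (23216 counts), so the rank depends on it.

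**Figure D3:**
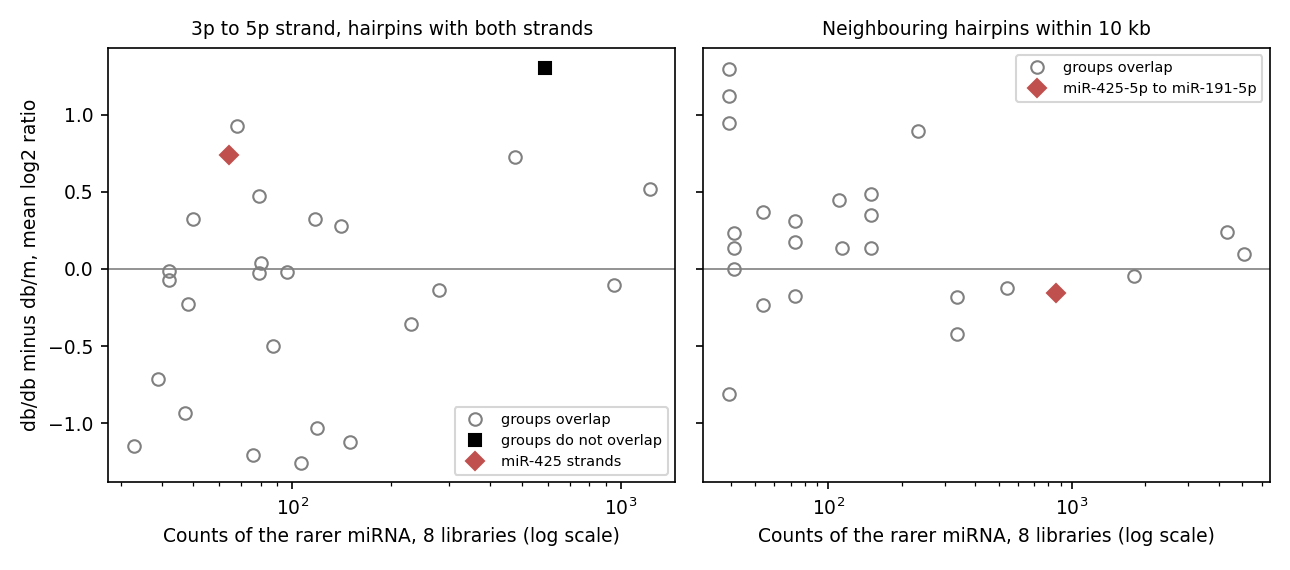
Difference in mean log2 ratio, db/db minus db/m (vertical axis), against the counts of the rarer miRNA of each pair (log axis), for the strands of 26 hairpins (left) and 25 pairs of neighbouring hairpins (right). The Mir425 strand ratio (0.74) and the miR-425-5p to miR-191-5p ratio (-0.16), drawn as red diamonds, lie among the others, and only Mir423 has genotypes that do not overlap.

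As miR-191-5p serves as a reference miRNA, its spread over the 8 libraries was set beside that of the 74 tested miRNAs averaging at least 1000 CPM. Its log2 CPM had an SD of 0.24 over all libraries, rank 17 from the least variable, against a median of 0.36. Within genotypes the SD was 0.19, rank 11, against a median of 0.33. miR-425-5p was more variable, with an SD of 0.42 over all libraries and rank 44. With RLE, another scaling, miR-191-5p ranked 9 over all libraries and 6 within genotypes. Among the 32 miRNAs averaging at least 5000 CPM by TMM it ranked 10 and 9, against median SDs of 0.31 and 0.24. Counting alone gives an SD of about 0.04 for miR-191-5p and 0.15 for miR-425-5p. With TMM scaling the least variable of the 74 was miR-25-3p with an SD of 0.15, followed by miR-16-5p with 0.15 and miR-24-3p with 0.17.

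Of 18 miRNAs often used as references, all tested, 2 fell in db/db and 0 rose by edgeR at adjusted p of 0.05. Over all tested miRNAs 4.86% passed in either direction. The list had 13 log2 fold changes below 0 and a median of -0.06. Of all tested miRNAs 54.2% lay below 0, with a median of -0.03. miR-423-5p fell by 1.39 on the log2 scale (SE 0.25, adjusted p = 0.00532 by edgeR) and miR-320-3p fell by 1.03 (SE 0.23, adjusted p = 0.0198 by edgeR). The most abundant reference, let-7a-5p, stood at -0.38 (SE 0.11, adjusted p = 0.0637 by edgeR), beside -0.29 for miR-191-5p. Scaling every library to its miR-191-5p count, an alternative chosen after seeing the data, shifted the median log2 fold change of the other 143 miRNAs to 0.27. The calls by edgeR then numbered 13, with 11 higher and 2 lower, where TMM scaling gave 7, with 4 higher and 3 lower, and 6 were shared. In that fit miR-425-5p stood at -0.13 on the log2 scale (SE 0.30, adjusted p = 0.814 by edgeR).

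**Figure D4:**
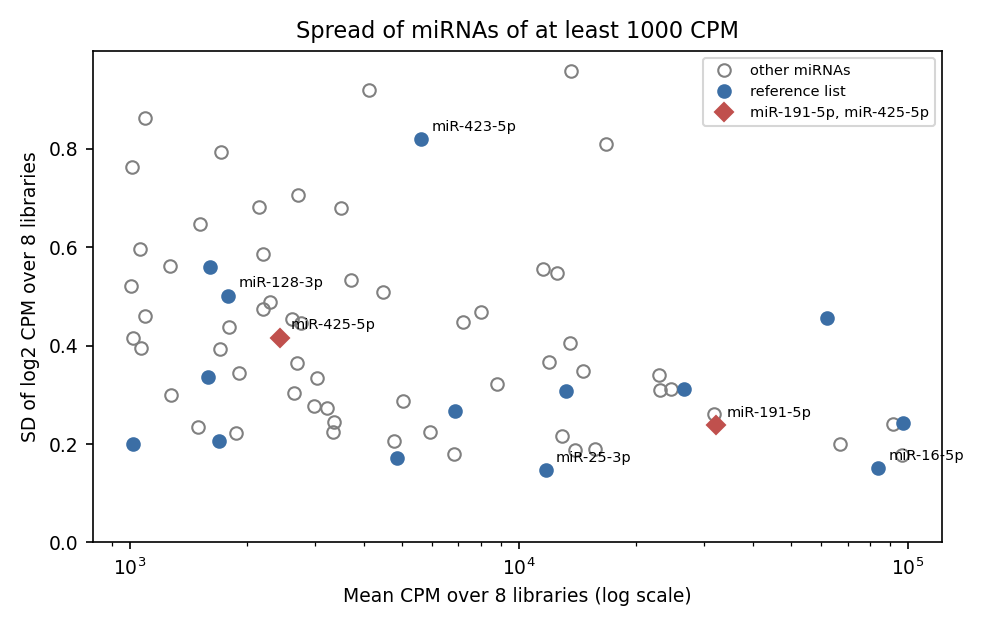
SD of log2 CPM over the 8 libraries (vertical axis) against mean CPM (log axis) for 74 miRNAs, with miR-191-5p and miR-425-5p as red diamonds and other reference miRNAs as blue points. miR-191-5p (0.24) lies in the lower part of the range, miR-425-5p (0.42) above the median of 0.36, and miR-423-5p is among the most variable.

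The members' profiles over the libraries were compared with those of the other miRNAs averaging at least 1000 CPM (73 for each member), as a description of 8 libraries that share depth and scaling. Nearest to miR-191-5p were miR-128-3p (Pearson r = 0.91, Spearman rho = 0.83), miR-148a-3p (r = 0.79, rho = 0.57) and miR-142a-5p (r = 0.75, rho = 0.69). Of these miR-148a-3p fell in db/db, with a log2 fold change of -1.40 and an adjusted p of 0.0299 by edgeR. Nearest to miR-425-5p were miR-25-3p (r = 0.86, rho = 0.90), miR-222-3p (r = 0.75, rho = 0.62) and miR-92a-3p (r = 0.73, rho = 0.79), of which none passed. These profiles were picked for the highest r of 73, over libraries of both genotypes. The neighbours miR-191-5p and miR-425-5p, not picked in this way, had r = 0.46 and rho = 0.29 over the 8 libraries. miR-425-5p came 15th among the 73 miRNAs ordered by their r with miR-191-5p, and miR-191-5p came 13th in the order for miR-425-5p.

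Of the NF-kB and inflammation list 5 miRNAs were tested and 0 passed, with a median log2 fold change of 0.41. For comparison, 4.86% of all 144 tested miRNAs passed, and the median of all 144 was -0.03. At that share, 0 passing in a list this small, or in the erythroid list below, says little. The most abundant of the NF-kB and inflammation list, miR-21a-5p, stood at 0.41 (SE 0.17, adjusted p = 0.171 by edgeR). Of the 5, 4 lay above 0 and 1 below, miR-146a-5p at -0.55 (SE 0.29, adjusted p = 0.308 by edgeR). Of 6 tested erythroid miRNAs 0 passed, with 4 log2 fold changes below 0 and a median of -0.04. The most abundant of these, miR-16-5p, stood at -0.07 on the log2 scale (SE 0.12), and miR-486a-5p, a marker of red cells, at -0.007 (SE 0.43). The value farthest from 0 in this list was that of miR-22-3p, -1.42, given above with the stem and progenitor list, which also holds it.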

How the data were processed

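The authors deposited raw counts per mature miRNA for 8 libraries, made with a QIAseq miRNA kit per the labels' protocols, with their own log2 fold changes, p-values and false discovery rates. Per the submitters' processing notes, edgeR 3.41.9 and the mm10 build were used. The aligner, molecular identifier use and earlier filters were not given in the sources used here; a count may thus be a read or a molecule. Columns were joined to samples by the number and suffix in their names, and 0 count columns were left over.

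The test was that of edgeR 4.0.16 under R 4.3.3: filterByExpr (minimum count 10, minimum total 15, 144 miRNAs kept), TMM, estimateDisp, glmQLFit (robust) and glmQLFTest, with Benjamini-Hochberg adjustment over all tested miRNAs and a threshold of 0.05. The SE is the log2 fold change over the square root of F. The procedure was tested on simulated data. Shares and log2 ratios of raw counts were compared by exact permutation (scipy 1.17.1). DESeq2 1.42.0, other scalings, no filter and leaving out each library were alternatives. No pair of libraries of 1 genotype matched within counting noise, as a library deposited again would (chi-square per degree of freedom 5.76 to 14.3 over 12 pairs), which does not show that they are independent animals. p-values measure only the spread between these samples, which may be technical. The named miRNAs are the members, those of each list that passed with its most abundant member, and the 3 nearest profiles of each tested 5p member; others were named after their values were seen. Members and lists were chosen with earlier results of these data known.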

Additional observations from a re-analysis of the deposited data

Results flagged for a closer look

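The miR-191-5p level of db/m replicate 3, 39518 CPM, lay apart from the other 3 db/m libraries, which stood between 33926 and 34232 CPM. Its gap to the next library was 0.945 of the range of the group, above Dixon's 95% critical value for 4 samples. Of 12 groups of 4 values looked at (both tested members, 3 ratios and the cluster share in each genotype) this was the only one past that value, and chance flags about 1 in 20 groups. With all miRNAs kept in the scaling the 4 db/m libraries stood at 34127, 34933, 38345 and 37309 CPM, and the gap was 0.246 of the range, below that critical value, so the separation depends on the filter. The library is the deepest of the 8. Without it the log2 fold change of miR-191-5p was -0.31, with an adjusted p of 0.202 by edgeR.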

How the results depend on the processing

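Of the 16 alternatives to the edgeR fit, all left both tested members below 0 and neither past adjusted p of 0.05. Their unadjusted p, by edgeR or DESeq2, ran from 0.0292 to 0.222 for miR-191-5p and from 0.0502 to 0.298 for miR-425-5p. The log2 fold change ran from -0.37 to -0.19 for miR-191-5p (adjusted p 0.174 to 0.583) and from -0.56 to -0.29 for miR-425-5p (adjusted p 0.265 to 0.591). Scaling by library totals shifted the median of all miRNAs by 0.11, and relative to that median miR-191-5p stood at -0.27 and miR-425-5p at -0.42. Over all miRNAs 7 passed, 12 by DESeq2, 15 with libraries of 1 title number summed and 3 to 18 with 1 library left out. The summed fit tested 186 miRNAs and has fewer units per genotype, which in db/m hold unequal numbers of libraries. Its count is thus not from a like design. With 1 library left out, miR-425-3p ran from -0.27 to 0.69, and the difference in the log2 ratio of miR-425-5p to miR-191-5p from -0.27 to 0.0307, above 0 when db/m replicate 2 was left out (0.0307) and likewise for db/db replicate 4 (0.0197); the cause was not tested. The strand ratio difference of miR-425 ran from 0.53 to 1.32 with 1 library left out and was 0.29 from summed counts, and that of miR-425-3p to miR-191-5p ran from 0.38 to 1.23 and was 0.24 from summed counts. The cluster share difference ran from -0.66 to -0.28 percentage points with 1 library left out. It was -1.16 with let-7 miRNAs out of the total, where every share is larger. No exact permutation p of these measures fell below 0.0571, but with 1 library left out that is the smallest p the test allows. The cluster share reached it without db/db replicate 4, at a difference of -0.66 percentage points and with groups that did not overlap. These p-values therefore cannot show that the share difference is absent. No paired analysis was possible because the replicate numbers follow accession order and the title suffixes recur within a genotype, so nothing ties a db/m to a db/db library. Depth limits miR-425-3p most, with as few as 1 count per library.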
